A study of Mus musculus with 9 samples.

Results

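Laminins, nidogens and the glycoproteins that bind them form the sheet of matrix on which endothelial cells rest, and their transcripts were followed here in endothelium from mouse hearts. The 10 members are Lama4, Lama5, Lamb1, Lamb2, Lamc1, Nid1, Nid2, Hspg2, Sparc and Agrn, each matched by its symbol among the 18094 genes of the deposited count table. All 10 members were found once in that table, and all 10 passed the low-count filter that left 15277 genes for testing. The cells had been isolated with microbeads, and their polyA RNA was sequenced in 3 groups of 3 libraries each. The first is BPH/2J, an inbred hypertensive mouse line, at 22 weeks of age. Another is BPH/2J at 4 weeks of age. The last is BPN/3J, the normotensive line kept as its control, at 22 weeks of age. The labels name no treatment, and blood pressure, sex and the number of animals behind a library were not stated by the sources. The hypertensive and the normotensive type come from 1 inbred line each, so the effects of pressure and of genetic background cannot be told apart. Within BPH/2J, age and any change of pressure between 4 and 22 weeks cannot be told apart either. BPN/3J at 4 weeks was not analysed here, so whether age acts differently in the lines was not tested.

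A basement membrane is a thin sheet built from a laminin network and a type IV collagen network. Each laminin is a trimer of an alpha, a beta and a gamma chain that is assembled inside the cell before secretion, and endothelial cells are known for laminins whose alpha chain is the product of Lama4 or Lama5. Nidogens bind the laminin gamma 1 chain and type IV collagen, perlecan and agrin are proteoglycans that carry heparan sulfate, and SPARC is a secreted glycoprotein that binds collagens. Laminins signal to cells through integrins and dystroglycan.

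Libraries held 28806840 to 32913813 counts. The labelled cell type was checked on 10 endothelial markers, each counted in every library, whose summed level was 12790.5 to 13024 CPM (counts scaled to the library size, adjusted by the trimmed mean of M values, TMM) in 22-week BPH/2J, 12269 to 12791 CPM in 4-week BPH/2J and 10050.2 to 10632 CPM in BPN/3J. Markers of other heart cells were counted in every library as well, and the marker with the most CPM in each list, not corrected for length, was Cdh5 for endothelium, Atp2a2 for cardiomyocytes, Rgs5 for pericytes, Lyz2 for macrophages and Dcn for fibroblasts. The 12 cardiomyocyte markers summed to 787 to 915 CPM in 22-week BPH/2J, 828 to 949 CPM in 4-week BPH/2J and 1234 to 1433 CPM in BPN/3J. The 10 pericyte and smooth muscle markers summed to 1459.8 to 1751 CPM, 1509 to 1876 CPM and 1221 to 1400.4 CPM in the same order of groups, and the 10 macrophage markers to 259 to 311 CPM, 445 to 795 CPM and 399 to 649 CPM. The 10 fibroblast markers summed to 435 to 522 CPM in 22-week BPH/2J, 512 to 800.3 CPM in 4-week BPH/2J and 535 to 607 CPM in BPN/3J, the 800.3 CPM coming from replicate 1 of 4-week BPH/2J. In bulk RNA, fewer cells of a type and less RNA per cell cannot be told apart. The labels do not say that replicates are separate animals, so a p-value here reflects variation among libraries that could be technical.

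The members together took 1.02%, 1.26% and 1.08% of all counts in 22-week BPH/2J, 1.72%, 1.88% and 1.79% in BPH/2J at 4 weeks, and 0.808%, 0.802% and 0.935% in BPN/3J. The 3 groups did not overlap, and 4-week BPH/2J was the highest. Hspg2 and Sparc carried most of this, with 62.5% to 64.1% of the member counts in 22-week BPH/2J, 65.4% to 66.4% in 4-week BPH/2J and 58.3% to 59.9% in BPN/3J. By mean share of counts, which grows with gene length, Hspg2 ranked 10 and Sparc ranked 12 among the 18094 genes. Per length, as RPKM (the CPM per kilobase of the deposited gene length), Sparc ranked 21 and Hspg2 119 among all genes, Lamb2 383, Nid1 392 and Lamc1 471, Nid2 784, Lama4 832, Agrn 852 and Lamb1 1007, and Lama5 was the lowest at 1964.

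**Figure D1:**
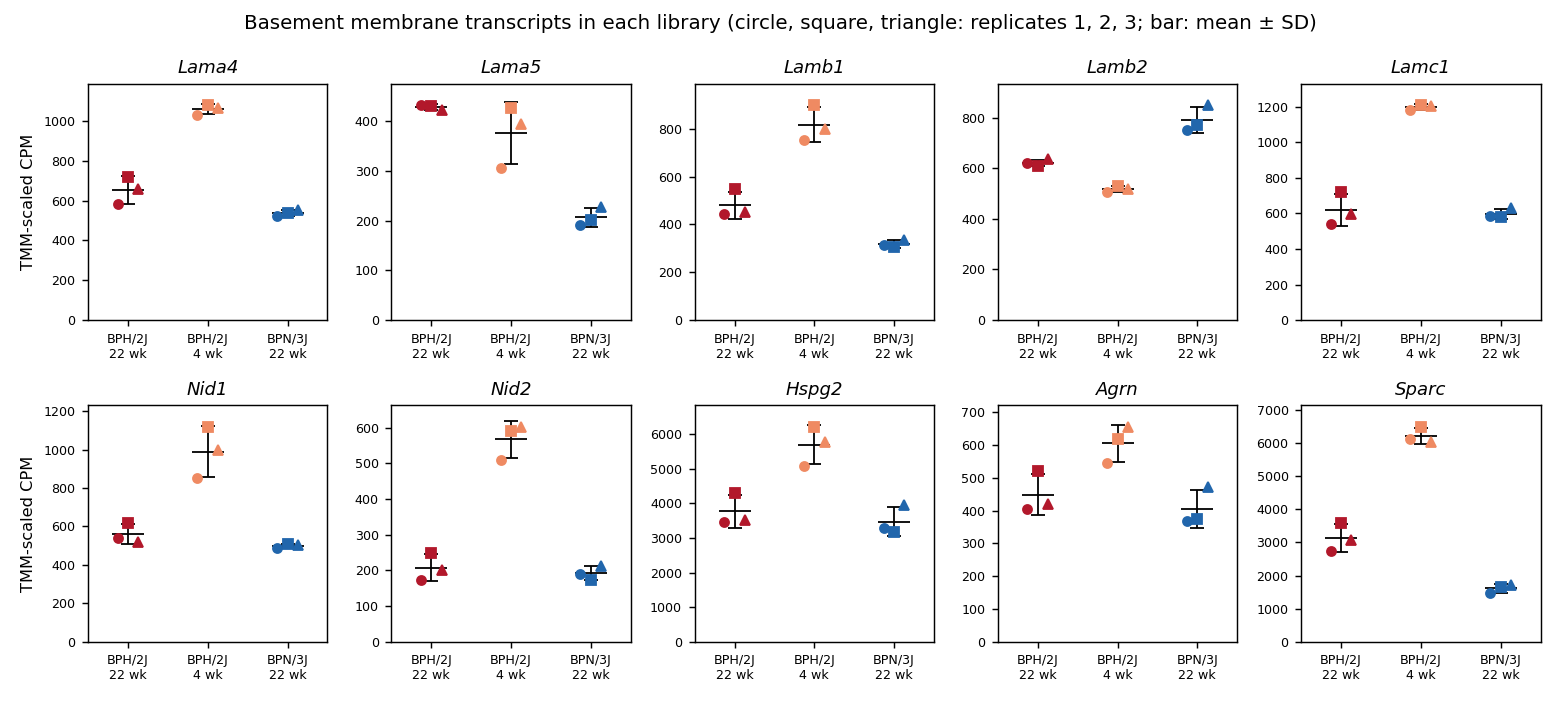
TMM-scaled CPM (y axis, linear, from 0) of the 10 transcripts in each library, by group (x axis); circles, squares and triangles are replicates 1, 2 and 3 and bars give the mean ± SD (n = 3). Most panels peak at 4-week BPH/2J, whereas Lamb2 is lowest there, at 507 to 531 CPM, and Lama5 is at 422 to 433 CPM in 22-week BPH/2J and spreads from 306 to 426 CPM in 4-week BPH/2J.

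The first comparison sets BPH/2J at 22 weeks against BPH/2J at 4 weeks. Of the 10 members, 8 were lower at 22 weeks, 1 was higher and 1 did not pass the test (edgeR quasi-likelihood test, Benjamini-Hochberg adjusted p under 0.05 over all 15277 genes). Of all tested genes 41.0% were called in this comparison, 21.1% lower and 19.9% higher, and of the 2321 genes that averaged 100 CPM or more 50.9% were called, 28.3% lower and 22.6% higher. The median log2 difference of the members was -0.73, against 0.01 over all tested genes. The falls ran from 1.35-fold for Agrn, a laminin-binding proteoglycan, to 2.72-fold for Nid2, and the groups did not overlap for 9 of the 10 members, against 51.2% of all tested genes. The exception in direction was Lamb2, a laminin beta chain, which was 1.2-fold higher at 22 weeks. Markers of other cells moved in this comparison too: 9 of 10 macrophage markers were lower and 1 higher, 4 of 10 fibroblast markers (the collagens Col1a1, Col1a2 and Col3a1, and Mfap5) were lower and 2 higher, 2 of 10 pericyte markers were lower and 0 higher, and 1 of 12 cardiomyocyte markers went each way. With the fibroblast marker mean as a covariate, 8 members were lower and 1 higher. That mean averages markers that moved both ways, so this fit cannot decide the part of fibroblasts in the falls. The part of macrophages and pericytes in the falls was not tested.

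The second comparison sets BPH/2J against BPN/3J, both at 22 weeks. Here 4 of the 10 members were higher in BPH/2J (Lama4, Lama5, Lamb1 and Sparc), 1 was lower (Lamb2) and 5 did not pass the test. Over all tested genes 38.0% were called, 19.8% higher and 18.2% lower, so the members' count of 5 of 10 stood near the background, and near the 42.4% called among the genes averaging 100 CPM or more (17.9% higher and 24.4% lower). The median log2 difference of the members was 0.16, against 0.02 over all genes, and the groups did not overlap for 6 members, against 55.7% of all genes. Among the members Lama5 was 2.07-fold and Sparc 1.94-fold higher in BPH/2J. Of the marker genes, 6 of 10 endothelial ones were higher and 2 were lower in the 22-week BPH/2J libraries, 8 of 12 cardiomyocyte and 8 of 10 macrophage markers were lower and 0 higher, 1 fibroblast marker was higher and 2 lower, and 1 pericyte marker, Rgs5, was higher and 0 lower.

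In the comparison of 4-week BPH/2J with 22-week BPN/3J both strain and age differ, so it serves as a set of values only. There 9 members were higher in 4-week BPH/2J and 1, Lamb2, was lower, where 53.1% of all genes were called (27.8% higher and 25.3% lower) and 59.2% did not overlap; of the genes averaging 100 CPM or more 61.5% were called (30.9% higher and 30.6% lower). The groups did not overlap for any of the 10 members. Any pair of these comparisons shares a group of libraries, so they are not independent. By the false discovery rates in the authors' deposited table, 9 members passed 0.05 for the ages, 5 for the lines at 22 weeks and 10 for this last comparison.

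**Figure D2:**
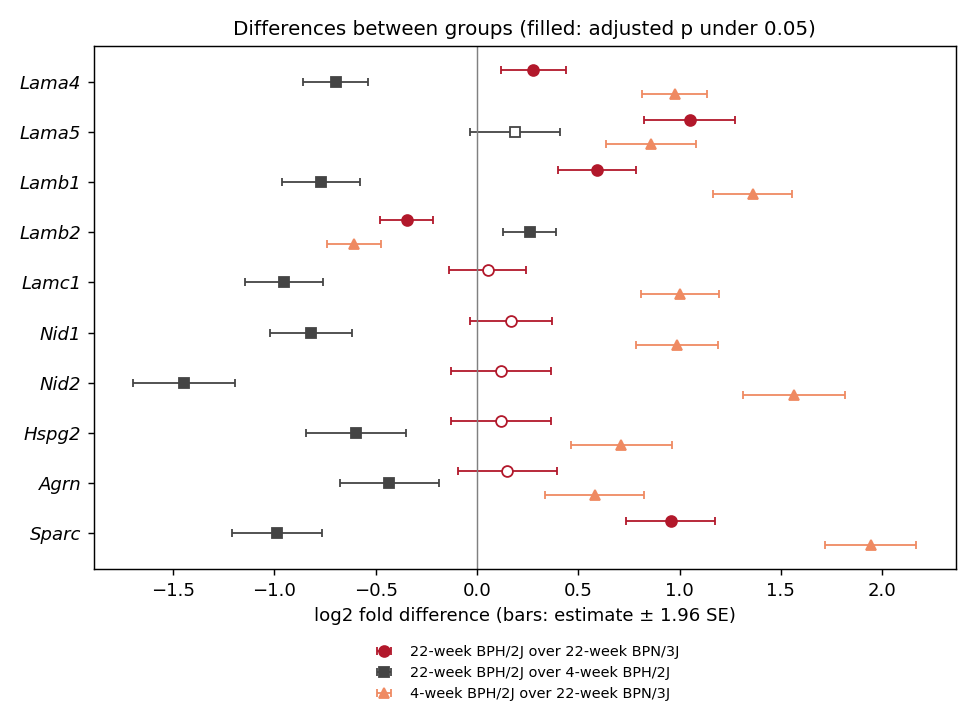
Log2 fold difference (x axis) of each member (rows) in the 3 comparisons, as the edgeR estimate with its 95% interval; filled symbols have an adjusted p under 0.05. Squares (22-week over 4-week BPH/2J) lie left of 0 for every member but Lama5 and Lamb2, and circles (22-week BPH/2J over BPN/3J) reach furthest right for Lama5 at 1.05 and Sparc at 0.96.

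Lama4 (ENSMUSG00000019846, chromosome 10) encodes the laminin alpha 4 chain, found mainly in vessels and muscle. It was at 581, 719 and 659.6 CPM in 22-week BPH/2J, 1032, 1079.7 and 1066 CPM in 4-week BPH/2J and 523, 540.2 and 553 CPM in BPN/3J. All 3 groups were apart, with the 4-week libraries far above the others. Between the ages it fell 1.62-fold (log2 difference -0.70 ± 0.08, SE, adjusted p = 0.000113, edgeR, lower in all 3 libraries). Against BPN/3J the 22-week level was 1.21-fold higher (log2 difference 0.28 ± 0.08, adjusted p = 0.0207, edgeR). The call between the lines was lost without replicate 2 or replicate 3 of 22-week BPH/2J (adjusted p = 0.0819 and 0.0607) and without replicate 1 or replicate 2 of BPN/3J (0.0683 and 0.0561). It was also lost when libraries were scaled to the summed endothelial markers (adjusted p = 0.763), a setting chosen after seeing the data that moved the median of all genes to -0.28, Lama4 standing 0.25 above that median.

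Lama5 (ENSMUSG00000015647, chromosome 2) encodes the laminin alpha 5 chain, the other alpha chain of endothelial basement membranes. Its levels were 433, 431 and 422 CPM in 22-week BPH/2J, 306, 426 and 396 CPM in 4-week BPH/2J and 191, 202 and 229 CPM in BPN/3J. Every BPH/2J library lay above every BPN/3J library at both ages, while the ages of BPH/2J overlapped. At 22 weeks Lama5 was 2.07-fold higher in BPH/2J than in BPN/3J (log2 difference 1.05 ± 0.11, adjusted p = 6.97e-05, edgeR). Between 22 and 4 weeks no difference was detected, with a log2 difference of 0.19 ± 0.11 (95% interval -0.03 to 0.41, adjusted p = 0.205, edgeR), an interval that still allows a rise of up to 0.41. Replicate 1 of 4-week BPH/2J, the library with the high fibroblast markers, was the low one of its group, and without it the log2 difference of the ages was 0.06.

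The alpha chains stood in different proportions in the groups. Per kilobase, Lama5 made up 44.1, 38.8 and 40.4% of Lama4 plus Lama5 in 22-week BPH/2J, 23.9, 29.5 and 28.2% in BPH/2J at 4 weeks and 27.8, 28.3 and 30.4% in BPN/3J. The 22-week BPH/2J libraries stood above all 6 others, which overlapped among themselves. The log2 ratio of Lama4 to Lama5 was 0.52 ± 0.16 in 22-week BPH/2J, against 1.43 ± 0.22 in 4-week BPH/2J (SD, n = 3 each), a difference of -0.91 (exact two-sided permutation test p = 0.1, adjusted p = 0.1 over 3 ratios). Against BPN/3J, at 1.30 ± 0.10, the difference was -0.78 (exact permutation p = 0.1, adjusted p = 0.15). With 3 libraries against 3 this test cannot go below 0.1. The ratio compares a pair of genes within a library, so it does not depend on how libraries are scaled.

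Lamb1 (ENSMUSG00000002900, chromosome 12) and Lamb2 (ENSMUSG00000052911, chromosome 9) encode the laminin beta 1 and beta 2 chains, which can replace each other in a trimer. Beta 1 is the more widespread chain, and beta 2 is known from mature vessels, kidney glomeruli and neuromuscular junctions. Lamb1 was at 442, 546 and 450.4 CPM in 22-week BPH/2J, 754, 899 and 801 CPM in 4-week BPH/2J and 313, 305 and 337 CPM in BPN/3J. Lamb2 was at 619, 610.3 and 635 CPM in 22-week BPH/2J, 507, 531 and 519.7 CPM in 4-week BPH/2J and 749.9, 772 and 850.0 CPM in BPN/3J. The groups ran in opposite order for these chains and did not overlap in either: 4-week BPH/2J was the highest for Lamb1 and the lowest for Lamb2, and BPN/3J the reverse. Lamb1 fell 1.71-fold between the ages (log2 difference -0.77 ± 0.10, adjusted p = 0.000186, edgeR) and was 1.51-fold higher in 22-week BPH/2J than in BPN/3J (0.59 ± 0.10, adjusted p = 0.00104). Lamb2 rose 1.2-fold with age (log2 difference 0.26 ± 0.07, adjusted p = 0.0107, edgeR) and was 1.27-fold lower in 22-week BPH/2J than in BPN/3J (-0.35 ± 0.07, adjusted p = 0.00255).

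Per kilobase, Lamb2 was 71.2, 66.3 and 71.3% of Lamb1 plus Lamb2 in 22-week BPH/2J, 54.2, 51.0 and 53.4% in BPH/2J at 4 weeks and 80.9, 81.7 and 81.7% in BPN/3J. The share separated all 3 groups, and 22-week BPH/2J lay between the others. The log2 ratio of Lamb1 to Lamb2 was -1.20 ± 0.19 in 22-week BPH/2J, against -0.17 ± 0.10 in 4-week BPH/2J (SD, n = 3 each), a difference of -1.03 (exact two-sided permutation test p = 0.1, adjusted p = 0.1). Relative to BPN/3J, at -2.13 ± 0.04, the ratio in 22-week BPH/2J was higher by 0.93 (exact permutation p = 0.1, adjusted p = 0.15).

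**Figure D3:**
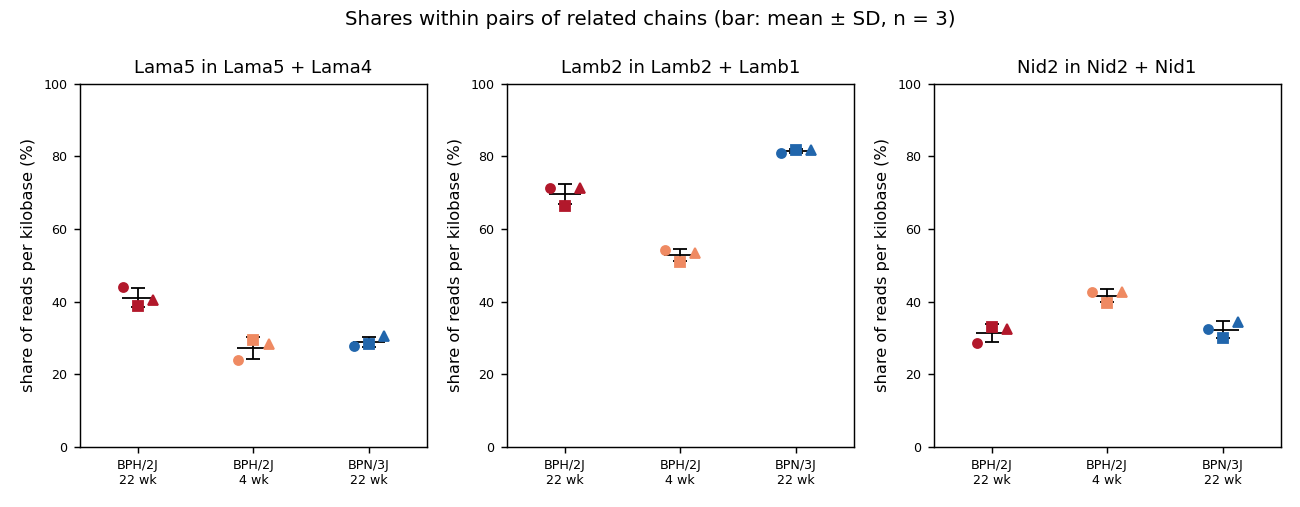
Share of the first-named transcript in the sum of a related pair, in percent of reads per kilobase (y axis, 0 to 100), for each library by group (x axis); symbols are replicates and bars the mean ± SD (n = 3). Lama5 is high in 22-week BPH/2J alone (38.8% to 44.1%), Lamb2 separates all 3 groups, and Nid2 is high in 4-week BPH/2J alone (39.5% to 42.7%).

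The stretches of DNA before the start sites of Lamb1 and Lamb2 are shown because these interchangeable chains differed in opposite directions, together with those of Lama5 and Sparc, the members that differed most between the lines. Each is the 250 bases upstream of the RefSeq start site in the GRCm38.p6 reference (C57BL/6J), written 5′ to 3′ on the gene's strand. The submitters' processing notes name mm9 for the counts, and neither BPH/2J nor BPN/3J sequence was used. The regions are chr12:31265043-31265292 (plus strand) for Lamb1, chr9:108479612-108479861 (plus strand) for Lamb2, chr2:180225860-180226109 (minus strand) for Lama5 and chr11:55420081-55420330 (minus strand) for Sparc. Capitals mark exact matches, on either strand, to GGGCGG, called the GC box, or to CCACCC, a motif of Krüppel-like factors.
Lamb1: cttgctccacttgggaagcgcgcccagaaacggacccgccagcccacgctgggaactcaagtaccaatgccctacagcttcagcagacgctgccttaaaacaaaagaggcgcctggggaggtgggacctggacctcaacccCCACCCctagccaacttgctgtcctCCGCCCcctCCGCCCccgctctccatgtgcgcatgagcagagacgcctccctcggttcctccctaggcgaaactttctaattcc
Lamb2: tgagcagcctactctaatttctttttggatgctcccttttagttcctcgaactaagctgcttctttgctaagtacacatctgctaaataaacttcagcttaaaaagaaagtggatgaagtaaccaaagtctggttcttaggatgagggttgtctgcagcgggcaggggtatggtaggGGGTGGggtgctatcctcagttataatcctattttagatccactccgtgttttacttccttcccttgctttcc
Lama5: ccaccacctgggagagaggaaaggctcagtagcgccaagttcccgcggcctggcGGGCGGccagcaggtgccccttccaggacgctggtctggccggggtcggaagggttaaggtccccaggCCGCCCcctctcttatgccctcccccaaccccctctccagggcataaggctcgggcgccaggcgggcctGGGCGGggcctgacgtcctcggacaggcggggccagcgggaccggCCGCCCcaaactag
Sparc: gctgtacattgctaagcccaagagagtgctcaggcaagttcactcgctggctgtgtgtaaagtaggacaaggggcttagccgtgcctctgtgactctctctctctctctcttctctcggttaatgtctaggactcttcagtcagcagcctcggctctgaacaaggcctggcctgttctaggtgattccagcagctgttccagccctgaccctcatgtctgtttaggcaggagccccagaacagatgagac
The Lamb1 window held 2 GC boxes and 1 Krüppel-like motif at 62.0% G plus C, and the Lama5 window held 4 GC boxes at 72.4%. The Lamb2 window held no GC box and 1 Krüppel-like motif at 43.6% G plus C, and the Sparc window matched neither at 54.0%. The median over the 32851 windows of the same table was 52.4% G plus C, and 32.7% of them held a GC box and 28.1% a Krüppel-like motif. AP-1 sites (TGANTCA, in 6.75% of all windows) and the ETS site CCGGAAGT (in 2.88%) were searched on both strands as well and matched in 0 of the 8 windows listed for 7 members. These matches describe letters in the reference and nothing about binding. The windows for Hspg2, Agrn and Nid1 were searched but are not printed. The 32851 windows did not include Lama4, Lamc1 or Nid2.

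Lamc1 (ENSMUSG00000026478, chromosome 1) encodes the laminin gamma 1 chain, shared by nearly all laminins of vessels. It was at 543, 721 and 598 CPM in 22-week BPH/2J, 1183, 1209.8 and 1206 CPM in 4-week BPH/2J and 588, 577 and 629 CPM in BPN/3J. The 4-week libraries were tightly grouped and stood above all others, while the 22-week lines overlapped. Between the ages it fell 1.93-fold (log2 difference -0.95 ± 0.10, adjusted p = 5.54e-05, edgeR). Between the lines at 22 weeks no difference was detected, with a log2 difference of 0.05 (95% interval -0.14 to 0.24, adjusted p = 0.693, edgeR).

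Summed over all chains of a class, the laminin transcripts were spread differently over the groups. Alpha chains (Lama1 to Lama5) summed to 105 ± 5.16 RPKM in 22-week BPH/2J, 132 ± 4.77 RPKM in 4-week BPH/2J and 76.5 ± 4.54 RPKM in BPN/3J (SD, n = 3 each). Beta chains (Lamb1 to Lamb3) summed to 159 ± 4.49, 175 ± 9.51 and 173 ± 10.9 RPKM, and gamma chains (Lamc1 to Lamc3) to 75.4 ± 11.1, 145 ± 1.75 and 72.8 ± 3.25 RPKM, in the same order of groups. The alpha sums did not overlap between any groups, the beta sums were lowest in 22-week BPH/2J but spanned only 155 to 185 RPKM over the 9 libraries, and the gamma sums set 4-week BPH/2J apart. Beta chains per alpha chain came to 1.48 to 1.55 in 22-week BPH/2J, 1.30 to 1.36 in 4-week BPH/2J and 2.20 to 2.30 in BPN/3J. Gamma chains per alpha chain came to 0.660 to 0.794 in 22-week BPH/2J, 1.07 to 1.13 in 4-week BPH/2J and 0.918 to 0.996 in BPN/3J. Thus 22-week BPH/2J held the fewest gamma transcripts per alpha transcript, and BPN/3J held the most beta transcripts per alpha transcript. These ratios were not tested and rest on the deposited gene lengths.

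**Figure D4:**
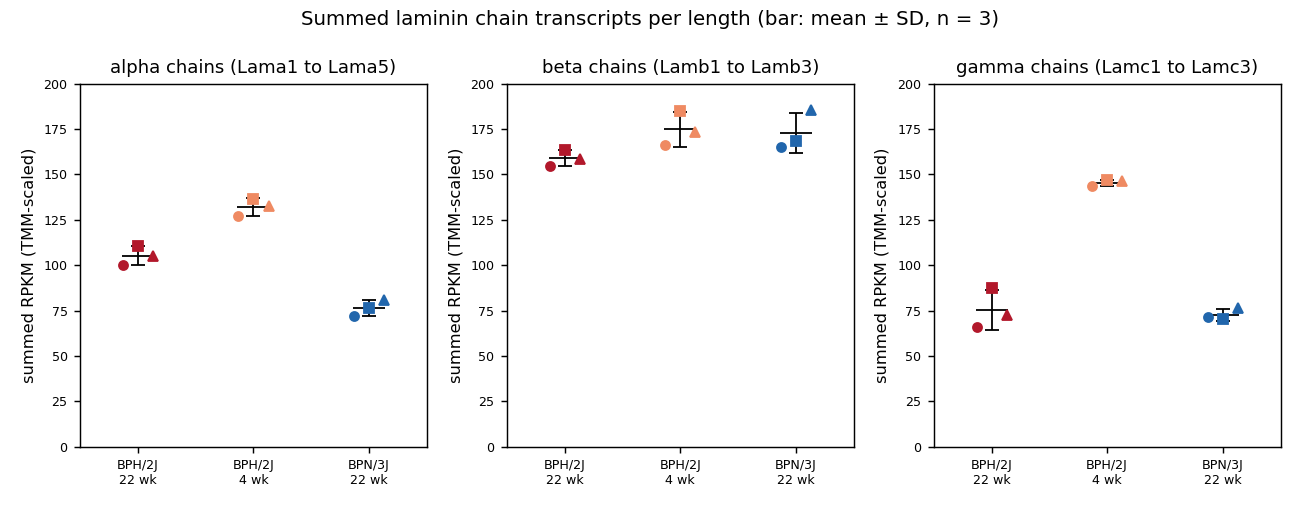
Summed RPKM (y axis, 0 to 200) of the laminin alpha, beta and gamma chains in each library by group (x axis); symbols are replicates and bars the mean ± SD (n = 3). The beta sums stay between 155 and 185 RPKM in all 9 libraries, while alpha and gamma sums are highest in 4-week BPH/2J.

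Of the remaining laminin chains, Lama3 rose with age and Lama2 was lower in 22-week BPH/2J than in BPN/3J. Lama3, an alpha chain best known from epithelia, was at 98.8 ± 4.42 CPM in 22-week BPH/2J against 60.8 ± 9.57 CPM in 4-week BPH/2J (SD, n = 3 each), a 1.63-fold rise (adjusted p = 0.00106, edgeR). Lama2, the alpha chain of muscle fibres, was at 40.0 ± 1.32 CPM in 22-week BPH/2J against 59.1 ± 7.10 CPM in BPN/3J, 1.48-fold lower in BPH/2J (adjusted p = 0.0391, edgeR). Of the cardiomyocyte markers 8 of 12 were lower and 0 higher in 22-week BPH/2J. Of the macrophage markers 8 of 10 were lower and 0 higher, and 2 of 10 fibroblast markers were lower and 1 higher. The part of these cells in the Lama2 difference was not tested. Of the 5 other chains tested, 0 were higher and 2 lower between the lines, where 38.0% of all genes were called. These 2 were Lama2 and Lamc3, with Lamc3 under 1 CPM. Between the ages 1 was higher and 0 lower, where 41.0% of all genes were called. Lama1 was left out by the filter.

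Nid1 (ENSMUSG00000005397, chromosome 13) and Nid2 (ENSMUSG00000021806, chromosome 14) encode the nidogens, which link the laminin and collagen networks. Nid1 was at 540.3, 619.5 and 521 CPM in 22-week BPH/2J, 849.9, 1118 and 999 CPM in 4-week BPH/2J and 486, 506 and 503 CPM in BPN/3J. Nid2 was at 174, 248 and 202 CPM in 22-week BPH/2J, 508, 590.4 and 602 CPM in 4-week BPH/2J and 189, 174 and 213 CPM in BPN/3J. For both, every 4-week library lay above all 22-week libraries of either line. Nid1 fell 1.77-fold between the ages (log2 difference -0.82 ± 0.10, adjusted p = 0.000175, edgeR) and Nid2 fell 2.72-fold (-1.45 ± 0.13, adjusted p = 2.59e-05). Between the lines at 22 weeks the log2 differences were 0.17 (95% interval -0.03 to 0.37, adjusted p = 0.216, edgeR) and 0.12 (95% interval -0.13 to 0.36, adjusted p = 0.487), neither past the threshold.

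The share of Nid2 in Nid1 plus Nid2 per kilobase was 28.5, 33.1 and 32.5% in 22-week BPH/2J, 42.5, 39.5 and 42.7% in BPH/2J at 4 weeks and 32.5, 29.8 and 34.4% in BPN/3J. The log2 ratio of Nid1 to Nid2 was 1.13 ± 0.17 in 22-week BPH/2J against 0.49 ± 0.11 in 4-week BPH/2J (SD, n = 3 each), a difference of 0.64 (exact two-sided permutation test p = 0.1, adjusted p = 0.1). Against BPN/3J, at 1.07 ± 0.15, the difference was 0.06 (exact permutation p = 0.6, adjusted p = 0.6) and the groups overlapped. In the GENCODE M21 annotation 8.45% of the exon bases of Nid2 overlap Rtraf on the opposite strand, which was counted under an older symbol at 74.4 to 99.5 CPM. The sources do not state whether counting used the strand, so a part of the Nid2 counts is uncertain.

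Hspg2 (ENSMUSG00000028763, chromosome 4) encodes perlecan, a large heparan sulfate proteoglycan that binds growth factors. It was at 3471, 4311 and 3522 CPM in 22-week BPH/2J, 5094, 6212 and 5775 CPM in 4-week BPH/2J and 3296, 3179.5 and 3941 CPM in BPN/3J. Agrn (ENSMUSG00000041936, chromosome 4) encodes agrin, a heparan sulfate proteoglycan that binds laminins and dystroglycan and is best known from the neuromuscular junction. It was at 405, 522 and 420.2 CPM in 22-week BPH/2J, 545, 617 and 655 CPM in 4-week BPH/2J and 369, 373 and 472 CPM in BPN/3J. In both genes the 4-week libraries were above all others, while the lines overlapped at 22 weeks. Hspg2 fell 1.51-fold between the ages (log2 difference -0.60 ± 0.13, adjusted p = 0.00396, edgeR). Agrn fell 1.35-fold (-0.43 ± 0.12, adjusted p = 0.0183), and its call was lost without 22-week replicate 1 or 3 (adjusted p = 0.0842 and 0.0765) or 4-week replicate 3 (0.0770). Between the lines the log2 difference was 0.12 for Hspg2 (95% interval -0.13 to 0.36, adjusted p = 0.486, edgeR) and 0.15 for Agrn (-0.09 to 0.39, adjusted p = 0.366). Over the 9 libraries these proteoglycans were the pair of members with the most similar course, with a root-mean-square distance of 0.09 between their centred log2 CPM, whereas the distances of Lamb2 to the other 9 members ran from 0.51 to 1.05.

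Sparc (ENSMUSG00000018593, chromosome 11) encodes the secreted collagen-binding glycoprotein also called osteonectin, which is abundant in tissues that build or remodel matrix. It was at 2758, 3586 and 3065 CPM in 22-week BPH/2J, 6131, 6494 and 6028 CPM in 4-week BPH/2J and 1464, 1664 and 1724 CPM in BPN/3J. No groups overlapped, and the order was 4-week BPH/2J, then 22-week BPH/2J, then BPN/3J. Between the ages Sparc fell 1.98-fold (log2 difference -0.99 ± 0.11, adjusted p = 9.82e-05, edgeR), and at 22 weeks it was 1.94-fold higher in BPH/2J than in BPN/3J (0.96 ± 0.11, adjusted p = 0.000122). In 4-week BPH/2J it was 3.84-fold higher than in BPN/3J, the widest difference of any member in these comparisons. The fibroblast collagen Col3a1, a marker chosen for that cell type, had log2 differences of -1.45 between the ages and 1.20 between the lines. The fibroblast marker Dcn had 0.72 and -0.67. With the fibroblast marker mean as a covariate Sparc kept both calls. That mean averages markers that moved in opposite directions, so this fit cannot decide the part of fibroblasts in the Sparc differences. Their part was not tested otherwise.

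Libraries of a group often deviated in the same direction for many members. In 22-week BPH/2J, replicate 2 was the highest library for 8 of 10 members, the 8 that fell with age, and the lowest for Lamb2, with a median log2 deviation from its group mean of 0.20. Replicate 1 of 4-week BPH/2J was the lowest of its group for 9 of 10 members, at a median of -0.13. Replicate 3 of BPN/3J was the highest for 9 of 10, at 0.10. How often each library was extreme over all tested genes was not counted, so these counts may not be particular to the members. Over all genes, 7383 were called between the ages without replicate 1 of 4-week BPH/2J, against 6257 with all libraries. Without replicate 2 or replicate 3 of that group the calls were 4968 and 4606. Leaving out each of the 9 libraries in turn gave 7 or 8 members called lower and 1 called higher between the ages, and 3 or 4 higher and 1 lower between the lines.

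**Figure D5:**
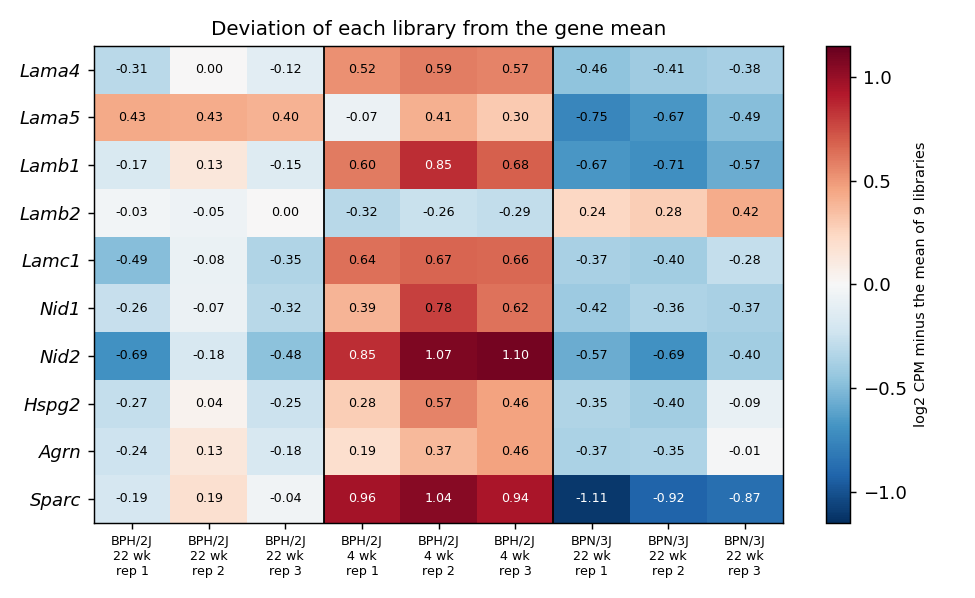
Log2 CPM of each member (rows) in each library (columns, grouped and divided by black lines) minus the mean of that member over all 9 libraries; red is above and blue below the mean, with the value in each cell. Sparc spans -1.11 to 1.04, Lamb2 has the opposite colour order to Lamb1, and replicate 2 of 22-week BPH/2J is redder than replicates 1 and 3 for most members.

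The main type IV collagen chains, partners of the nidogens in the sheet, fell with age as most members did. Col4a1 was at 2849 ± 646 CPM in 22-week BPH/2J, 8834 ± 878 CPM in 4-week BPH/2J and 1758 ± 178 CPM in BPN/3J (SD, n = 3 each), 3.1-fold lower at 22 than at 4 weeks (adjusted p = 4.44e-05, edgeR) and 1.62-fold higher in 22-week BPH/2J than in BPN/3J (adjusted p = 0.00615). Its partner chain Col4a2 was 2.74-fold lower and 1.68-fold higher in the same comparisons (adjusted p = 9.07e-05 and 0.00482, edgeR). The basement membrane collagens Col15a1 and Col18a1 fell 4.62-fold and 2.23-fold between the ages (adjusted p = 3.02e-05 and 6.08e-05). Among the 30 other basement membrane components tested, 9 rose and 9 fell between the ages, with a median log2 difference of 0.07, where 41.0% of all genes were called. Those that rose with age include Ntn1, a netrin, at 1.78-fold, Col4a3, a collagen chain of specialised membranes, at 1.98-fold, and Ecm1 at 1.31-fold. Between the lines 8 were higher and 4 lower, near the 38.0% called over all genes. Among them Ntn1 was 1.53-fold and Mmrn2 1.31-fold higher. Thbs1, an adhesive matrix glycoprotein, was 2.12-fold, Tinagl1 1.65-fold and Col4a4 1.54-fold lower.

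Receptors for laminin and agrin went both ways. Of 19 tested receptors and their linkers, 5 rose and 7 fell between the ages, and 4 were higher and 3 lower in 22-week BPH/2J than in BPN/3J, with median log2 differences of -0.16 and 0.04, where 41.0% and 38.0% of all genes were called. Mcam, an adhesion molecule reported to bind laminins that contain alpha 4, was at 410.1 ± 42.3 CPM in 22-week BPH/2J, 737 ± 41.8 CPM in 4-week BPH/2J and 241 ± 14.9 CPM in BPN/3J. It fell 1.8-fold between the ages (adjusted p = 5.63e-05, edgeR) and was 1.7-fold higher in 22-week BPH/2J than in BPN/3J (adjusted p = 0.0001). Bcam, a receptor for the alpha 5 chain, was at 889.8 ± 35.3 CPM in 22-week BPH/2J, 621 ± 8.99 CPM in 4-week BPH/2J and 709 ± 32.9 CPM in BPN/3J, 1.43-fold higher at 22 than at 4 weeks (adjusted p = 0.000175, edgeR) and 1.26-fold higher than in BPN/3J (adjusted p = 0.00297). For both receptors the groups did not overlap in either comparison, which also held for 51.2% (ages) and 55.7% (lines) of all tested genes.

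Among integrin subunits, Itgb1, the common beta 1 subunit of laminin receptors, fell 1.28-fold between the ages (adjusted p = 0.0028, edgeR). Itga2, a collagen and laminin receptor subunit, was low and fell 3.37-fold, to 3.28 ± 0.560 CPM in 22-week BPH/2J, against 11.1 ± 3.11 CPM in 4-week BPH/2J. Itga3, which binds alpha 5 laminins, rose 1.48-fold with age but was 1.62-fold lower in 22-week BPH/2J than in BPN/3J (adjusted p = 0.00162 and 0.000412, edgeR). Between the lines Itgb4, the partner of alpha 6, was 1.8-fold higher in BPH/2J, and Lrp4, an agrin receptor of muscle, and Sgcb, a sarcoglycan of the dystroglycan complex, were 1.83-fold and 1.24-fold lower. Utrn, which ties dystroglycan to actin, rose 1.28-fold with age (adjusted p = 0.00191, edgeR).

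The mean level of the cardiomyocyte markers did not overlap between the lines, although that of 4 of the 12 single markers did, so line and mean marker level cannot be told apart in a fit with that mean as a covariate. Genes called between the lines numbered 3255 in that fit, against 5810 without the covariate. Lama5 and Sparc kept their calls between the lines at smaller log2 differences of 0.62 ± 0.18 and 0.74 ± 0.21 (SE, adjusted p = 0.0358 and 0.0337, edgeR). The log2 difference of Lama4 was 0.06 ± 0.15 (SE, adjusted p = 0.799, edgeR) and that of Lamb1 0.24 ± 0.16 (adjusted p = 0.305), both smaller than without the covariate. Lamb2 lost its call with a difference of -0.39 ± 0.14 (adjusted p = 0.0661), against -0.35 ± 0.07 without the covariate, so its size did not shrink and its SE grew. The 8 falls with age were all called.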

How the data were processed

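The deposited table lists 18094 genes and, per the file headers, gives raw counts for 9 libraries, CPM that equal counts over column totals, and the authors' log2 fold changes, p-values and false discovery rates, of which only the members' rates were used. A deposited length column (other) gave RPKM. Per the labels' protocols, endothelial cells were isolated on Miltenyi microbeads, and polyA RNA was read as 100-cycle single reads. The submitters' processing notes name TopHat2 2.0.13, featureCounts, edgeR and mm9 without settings.

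Genes were kept by filterByExpr, scaled by TMM and fitted on group over all 9 libraries with the quasi-likelihood F test of edgeR 4.0.16 (two-sided, Benjamini-Hochberg threshold 0.05). Each SE was derived from the estimate and its F statistic. Intervals are 95% normal ones, the estimate ± 1.96 SE, and are narrower than intervals from the F test would be. The fit was also run on simulated counts with the same dispersion for every gene. That run checks the code and does not show how well the calls hold in these libraries. Floors of 3 counts correspond to 0.0911 to 0.104 CPM and cover counting error only. Alternatives used DESeq2 1.42.0 and limma 3.58.1. Named genes were the members, up to 3 called genes a direction from each list with at least 1 CPM, the top marker of each cell type and the nearest gene of members called in both main comparisons. Markers named beyond that rule, and Lamc3, were chosen after their values were seen. The members and lists were chosen with earlier results of these data known.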

Additional observations from a re-analysis of the deposited data

How the results depend on the processing

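Across 20 alternatives, 196 of 200 member results between the ages, 180 of 200 between the lines and 195 of 200 between 4-week BPH/2J and BPN/3J kept their direction and side of the threshold. Leaving out a library gave 3 to 4 members higher and 1 lower between the lines, 7 to 8 lower and 1 higher between the ages, and 9 higher and 1 lower in the third comparison. For the other basement membrane lists it gave 10 to 18 higher and 8 to 16 lower between the lines (14 and 13 with all libraries), the 8 without BPN/3J replicate 3, and 13 to 19 higher and 20 to 27 lower between the ages. The cardiomyocyte covariate lowered the calls over all genes to 3255 between the lines, 5510 between the ages and 2486 in the third comparison, against 5810, 6257 and 8115 without it. It gave 2 members higher and 0 lower between the lines, 4 other list genes higher, 2 higher between the ages (Lama5 added) and 5 higher in the third. Under it the log2 differences between the lines reversed for Lamc1 (-0.18), Nid1 (-0.26), Nid2 (-0.39), Hspg2 (-0.28) and Agrn (-0.23), none called. Scaling to the endothelial markers, chosen after seeing the data, moved the median of all genes to -0.28 between the lines, with 3 members higher and 2 lower and 5 and 30 other list genes; Lama4 (-0.032), Lamc1 (-0.26, called, 0.02 above that median), Nid1 (-0.14), Nid2 (-0.20), Hspg2 (-0.20) and Agrn (-0.16) reversed. Without 22-week BPH/2J replicate 2, Lamc1 (-0.066) and Nid2 (-0.024) reversed between the lines, where leaving out libraries gave up to 0.146 and 0.236. Leaving out libraries moved the log2 ratio of Lama4 to Lama5 between -0.85 and -0.69 (lines) and -0.99 and -0.78 (ages), that of Lamb1 to Lamb2 between 0.82 and 0.99 and between -1.14 and -0.98, and that of Nid1 to Nid2 between -0.039 and 0.14 and between 0.54 and 0.70. With equal replicate numbers as a block, 5261 genes were called between the lines and 5758 between the ages, and the members called were 4 higher and 1 lower, and 1 higher and 8 lower. The labels do not say that equal numbers pair libraries. Residuals of libraries with equal numbers correlated at -0.16 to 0.08 and those with unequal numbers at -0.12 to 0.14. These ranges do not decide whether the numbers mark a shared batch. The causes were not tested. Depth is no limit for the members, whose lowest count was 5004.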

Other observations

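Proteases and inhibitors that act on basement membranes were counted beside the members. Of 18 tested, 7 fell and 2 rose between 22 and 4 weeks in BPH/2J, and 2 were higher and 4 lower in 22-week BPH/2J than in BPN/3J, where 41.0% and 38.0% of all genes were called. Mmp15, a membrane-bound metalloproteinase, was at 137 ± 16.7 CPM in 22-week BPH/2J, 409 ± 70.8 CPM in 4-week BPH/2J and 81.2 ± 7.12 CPM in BPN/3J (SD, n = 3 each), 2.99-fold lower at 22 weeks and 1.69-fold higher than in BPN/3J (adjusted p = 2.22e-05 and 0.00144, edgeR). Adamts1, which cuts proteoglycans, was lower in 22-week BPH/2J than in both other groups, at 616 ± 19.5 CPM against 1010.2 ± 108 CPM in 4-week BPH/2J and 1116 ± 38.4 CPM in BPN/3J. Adamts4 fell 5.13-fold with age, and Mmp9 and Adamts5 rose 2.16-fold and 1.31-fold. The matrix-bound inhibitor Timp3 was at 1165 ± 103 CPM in 22-week BPH/2J and 2077 ± 188 CPM in BPN/3J, 1.78-fold lower (adjusted p = 0.00167, edgeR). Ctss, a macrophage cathepsin, was 2.2-fold lower beside macrophage markers, of which 8 of 10 were lower; their part in it was not tested.

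For the 4 members called in both the line and the age comparison, the nearest of 10143 other genes by root-mean-square distance of centred log2 CPM over 9 libraries was Cd93 for Lamb1 (0.07), Slc25a13 for Lama4 (0.06), Cdc42bpa for Lamb2 (0.05) and Cyp51 for Sparc (0.14).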
